A study of Mus musculus with 12 samples.

Results

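The integrin and laminin subunits described here are every gene of the table whose symbol is Itga or Itgb followed by a number, or Lama, Lamb or Lamc followed by a number. The rule used no expression value, and it found 30 genes of the 24490 listed: 11 integrin alpha subunits, 8 integrin beta subunits, 5 laminin alpha chains, 3 laminin beta chains and 3 laminin gamma chains. Their mRNA was measured by RNA sequencing of polyA-selected RNA from the dorsal root ganglia (DRG) of adult male C57Bl/6 mice, taken from all spinal levels, in 12 samples of which 4 fell in each of 3 groups. Intact samples were whole ganglia frozen directly in liquid nitrogen, with the material of 1 mouse in each sample. Unsorted samples were ganglia dissociated with enzymes and trituration, with 2 mice pooled in each sample. MACS-sorted samples, from 8 pooled mice each, were dissociated in the same way, after which non-neuronal cells were labelled with a biotinylated antibody cocktail and anti-biotin magnetic beads and were retained on a column, so that the unlabelled cells that passed through were sequenced. No group carried a transgene or received a treatment, and the number of mice per sample differed with the group in each comparison.

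Laminins are secreted heterotrimers of an alpha, a beta and a gamma chain that polymerise into the sheet of every basement membrane, including the ones that wrap Schwann cells, satellite glia and blood vessels in a ganglion. Integrins are transmembrane heterodimers of an alpha and a beta subunit that bind laminins, collagens, fibronectin and other matrix proteins and link them to the actin cytoskeleton. Itgb1 joins most alpha subunits, Itga3, Itga6 and Itga7 make laminin receptors with it, Itgb4 pairs with Itga6, and Itgb3, Itgb5, Itgb6 and Itgb8 pair with Itgav, as Itgb1 also can.

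Promoter sequences were found for 19 of the 30 subunits in the RefSeq table of the mouse assembly GRCm38.p6, as the 250 bases before and the 50 bases after each annotated start. Of these, 4 are shown because the results turn on them: Itgb8 and Lama2, the integrin subunit and the laminin chain with the largest falls after sorting, Itga3, which rose, and Itgb1, the subunit with the highest level. They lie at chr12:119238227-119238526 (minus strand, Itgb8), chr10:27616893-27617192 (minus strand, Lama2), chr11:95076665-95076964 (minus strand, Itga3) and chr8:128685404-128685703 (plus strand, Itgb1). Each is printed 5′ to 3′ along the gene, and capitals mark the letters GGGCGG, a GC box, as read on the printed strand.
Itgb8: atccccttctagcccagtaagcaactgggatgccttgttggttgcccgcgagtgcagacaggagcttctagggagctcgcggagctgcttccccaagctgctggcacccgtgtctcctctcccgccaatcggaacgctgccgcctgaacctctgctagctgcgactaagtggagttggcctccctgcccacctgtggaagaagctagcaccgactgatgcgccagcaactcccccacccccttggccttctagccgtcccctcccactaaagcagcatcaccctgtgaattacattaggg
Lama2: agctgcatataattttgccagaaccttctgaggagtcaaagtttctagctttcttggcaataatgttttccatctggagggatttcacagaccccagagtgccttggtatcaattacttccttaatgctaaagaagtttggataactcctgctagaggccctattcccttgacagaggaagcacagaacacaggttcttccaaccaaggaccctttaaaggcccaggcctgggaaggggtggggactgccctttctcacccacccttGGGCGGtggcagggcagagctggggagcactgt
Itga3: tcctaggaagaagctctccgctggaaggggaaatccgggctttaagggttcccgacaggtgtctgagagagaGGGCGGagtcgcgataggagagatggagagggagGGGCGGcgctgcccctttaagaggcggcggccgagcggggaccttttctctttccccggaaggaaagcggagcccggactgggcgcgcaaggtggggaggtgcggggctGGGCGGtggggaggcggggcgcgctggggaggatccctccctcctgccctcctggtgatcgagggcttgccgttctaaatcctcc
Itgb1: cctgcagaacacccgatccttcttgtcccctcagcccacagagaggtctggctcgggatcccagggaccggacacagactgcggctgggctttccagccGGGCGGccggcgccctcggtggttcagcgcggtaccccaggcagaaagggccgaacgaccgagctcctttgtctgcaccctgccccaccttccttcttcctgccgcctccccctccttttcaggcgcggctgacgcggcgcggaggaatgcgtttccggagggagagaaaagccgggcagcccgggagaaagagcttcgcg
Among the 19, the annotated start used for Itga9 lay 104984 bases from the start of that gene in the expression data, and the others within 59 bases. On both strands together, GGGCGG occurred in 9 of the 19 promoters (47.4%), against 35.6% of all 32817 promoters of the same length. The counts were 3 in Itga3, 1 each in Lama2 and Itgb1, and 0 in Itgb8. A TATA box spelled TATAAA was in 0 of the 19 against 13.6% of all promoters, and an E box spelled CANNTG was in 16 of the 19 (84.2%) against 72.3%. CpG pairs numbered 27 in the Itgb1 window, 24 in Itga3, 13 in Itgb8 and 1 in Lama2, beside a median of 13 over the 19 and 7 over all promoters. These letters describe the windows and show no binding.

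The values are FPKM, fragments scaled to transcript length and to the mapped total of each library, so that levels can be set side by side between genes. Tests were made with limma on log2(FPKM + 0.1) wherever the 8 samples compared averaged 1 FPKM or more, two-sided, with p-values adjusted by Benjamini-Hochberg over all genes tested and 0.05 as the limit for a call. A log2-fold change on this scale understates the change of genes near 0. Depth was estimated at 13400000 to 19200000 fragments per sample from the steps between low FPKM values, assuming fragments of 150 bases. Intact replicate 1 stood apart from the other intact samples: the SD of the log2 difference over genes was 0.633 to 0.649 for its pairs and 0.219 to 0.279 for the other intact pairs. Haemoglobin and other red blood cell genes summed to 2151 to 21710 FPKM in MACS-sorted samples, against 179.7 to 558.8 in unsorted samples, and were highest in MACS-sorted replicates 3 and 4.

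The marker lists gave the mRNA levels of cell type markers in each group. The 8 pan-neuronal markers summed to between 3507 and 4841 FPKM in every sample, and between MACS-sorted and unsorted samples 3 of them rose and 2 fell (Snap25 by 0.94 and Tubb3 by 0.38 on the log2 scale, named after their values were seen). Between MACS-sorted and unsorted samples, 9 of 10 small-diameter nociceptor markers rose. All 8 large-diameter neuron markers, all 8 satellite glia markers, 6 of 7 Schwann cell markers and 6 of 7 fibroblast markers fell. Among all genes tested in that comparison, 27.7% fell and 18.8% rose. The 3 macrophage, 4 neutrophil and 2 platelet markers that were tested (Itgb3 is 1 of the platelet markers) all fell, and all 12 red blood cell rows that were tested rose, whereas no T or B lymphocyte marker reached the level for a test. Of 5 pericyte and smooth muscle markers tested, 4 fell and 1 rose. Tagln was listed at 0 in all 4 MACS-sorted samples, against a mean of 13.8 FPKM unsorted. Elane and Ms4a1 were also at 0 there, against unsorted means of only 0.174 and 0.488 FPKM. Gp1bb and 2 rows of Hba-a1 were at 0 in every sample of all 3 groups. Treml1 was at 0 in every unsorted and MACS-sorted sample, so these rows show no loss on sorting. None of 7 endothelial markers passed the test in either direction: their sum ranged from 48.0 to 60.9 FPKM before sorting and from 15.0 to 82.1 FPKM after it. In whole-tissue or whole-preparation RNA, fewer cells of a type and less RNA per cell cannot be told apart.

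In intact ganglia the highest subunit by mean FPKM was Itgb1 at 102 ± 2.44 FPKM (SD, n = 4), followed by Itga7 at 32.0 ± 5.40 and Lamb1 at 20.2 ± 2.18. Below these came Itga6 (12.8 to 16.0 FPKM), Itgb8 (9.40 to 17.0), Itga3 (9.20 to 15.7), Lamc1 (11.6 to 13.2) and Lamb2 (9.72 to 10.9), and the ranges of Itgb8 and Itga3 overlapped those of the other 3. Intact samples had 12 subunits above 5 FPKM, unsorted samples 12 or 13, and MACS-sorted samples 3 to 5. In the MACS-sorted group the order began with Itgb1 at 88.6 ± 3.31 FPKM, Itga7 at 31.6 ± 5.26, Itga3 at 24.1 ± 1.74 and Itga6 at 6.30 ± 1.80, and the highest laminin chain was Lamb1 at 5.29 ± 0.58 FPKM.

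The first comparison asked which subunits differed between MACS-sorted and unsorted DRG. The sort was made to retain labelled non-neuronal cells, but the groups differed in more than that. All 8 large-diameter neuron markers fell too, no endothelial marker passed and all 12 red blood cell rows tested rose. A fall therefore does not tell non-neuronal cells from large neurons as the source. Of the 30 subunits, 15 averaged 1 FPKM or more and were tested. Of these, 12 fell, 1 rose (Itga3) and 2 did not pass the test (Itgb1 and Itga4). Among all 12038 genes tested, 27.7% fell and 18.8% rose, and the median log2-fold change was −0.04. Of all calls, 40.4% were rises, a share that was 59.5% under quantile normalization, where the median change over all genes became 0.10. In that setting 13 of 16 subunits tested fell and 1 rose, beside 2747 and 4031 of 12191 genes. Over all 30 subunits, including those too low to be tested, every MACS-sorted value lay below every unsorted value for 19 (against 25.0% of the 17657 genes detected) and above for 1, Itga3 (against 13.8%). With the study's further criteria on fold (log2 ratio beyond 0.5) and level (mean above 5 FPKM), 10 subunits fell and 0 rose, against 12.5% and 8.15% of the genes tested.

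The laminin chains were among the genes that fell. Lama2, the alpha chain of the Schwann cell and muscle basement membrane whose loss causes a congenital muscular dystrophy, was at 6.20, 6.63, 5.10 and 6.35 FPKM in the unsorted samples and at 0.0832, 0.151, 0.238 and 0.529 in the MACS-sorted samples. All 4 MACS-sorted samples were low and the groups were far from overlapping. The log2-fold change of Lama2 was −4.29 ± 0.35 SE (limma, adjusted p = 1.1e-05), which left 4.12% of the unsorted mean.

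Lama4, an alpha chain of vessel and nerve basement membranes, was at 11.7, 11.4, 8.86 and 10.5 FPKM in unsorted samples and 2.28, 1.13, 2.37 and 3.65 in MACS-sorted samples. The groups did not overlap, and MACS-sorted replicate 2 was the lowest and replicate 4 the highest. Its log2-fold change was −2.22 ± 0.28 (limma, adjusted p = 1.7e-04), and 22.2% of the mean was left.

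Lamb1, a beta chain found in most laminins, went from 23.9, 23.9, 21.9 and 22.9 FPKM to 5.91, 4.86, 5.66 and 4.73, a log2-fold change of −2.11 ± 0.090 (limma, adjusted p = 3.6e-07). Lamc1, the gamma chain of most laminins, went from 15.5, 16.2, 12.4 and 14.4 FPKM to 2.41, 1.30, 2.70 and 2.79, a change of −2.67 ± 0.22 (limma, adjusted p = 1.2e-05). Both chains were low in every MACS-sorted sample, and the spread of Lamb1 between replicates was small in both groups.

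Lamb2, the beta chain of synaptic and vascular basement membranes, fell least of the 5 laminin chains tested. Its unsorted values were 8.52, 8.18, 7.28 and 6.95 FPKM and its MACS-sorted values 4.17, 1.39, 3.13 and 5.69. The groups did not overlap, but MACS-sorted replicate 4 came close to the lowest unsorted sample. The log2-fold change was −1.24 ± 0.35 (limma, adjusted p = 0.015), with 46.5% of the mean left.

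Lama5, Lamc3, Lama1, Lama3 and Lamb3 did not reach a mean of 1 FPKM over these 8 samples. Fitted without the filter on low values, where 24.7% of 17657 genes fell and 13.6% rose, Lamc3 fell from 1.08 to 1.56 FPKM in unsorted samples to 0.0109 to 0.562 in MACS-sorted samples (log2-fold change −2.38 ± 0.48, limma, adjusted p = 0.0037). In that fit Lama1, an embryonic alpha chain, fell by 1.32 and Lama5, an alpha chain of mature vessels and epithelia, fell by 1.13 on the log2 scale. Lama3 and Lamb3 did not pass: Lama3 was at 0.332 to 0.420 FPKM unsorted and 0.221 to 0.642 sorted, and Lamb3 was under 0.11 FPKM in every sample.

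**Figure D1:**
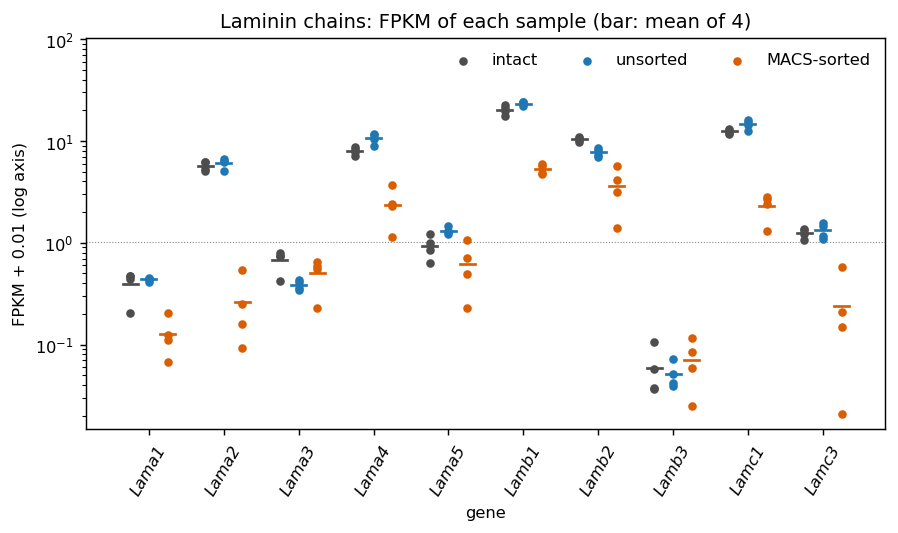
FPKM of 10 laminin chains in each sample, on a log axis after adding 0.01, with a bar at the mean of the 4 samples of each group. MACS-sorted points of Lama2 (0.0832 to 0.529 FPKM) and Lamc1 (1.30 to 2.79 FPKM) lie below every unsorted and intact point, while those of Lama3 (0.221 to 0.642 FPKM) and Lamb3 are mixed with the others.

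The chains did not fall in proportion. The summed FPKM of the 5 laminin alpha chains was 18.8 ± 1.94 in unsorted samples and 3.84 ± 1.69 in MACS-sorted samples, and the share of Lama2 in that sum was 32.3 ± 1.05% before and 6.36 ± 2.98% after sorting. Lama4 took 56.4 ± 1.47% and 61.6 ± 1.83%, Lama5 7.01 ± 0.85% and 15.2 ± 2.90%, and Lama3 2.00 ± 0.12% and 13.2 ± 2.08%. The share of Lama2 was lower, and those of Lama3, Lama4 and Lama5 higher, in every MACS-sorted sample than in any unsorted sample. These shares are a description of mRNA levels and were not tested.

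Among the beta chains, Lamb1 made up 74.9 ± 1.26% of the sum in unsorted samples and 61.1 ± 13.4% in MACS-sorted samples, where it ranged from 44.9 to 77.2%. The Lamb1 shares of the groups overlapped, with MACS-sorted replicate 4 lowest.

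**Figure D2:**
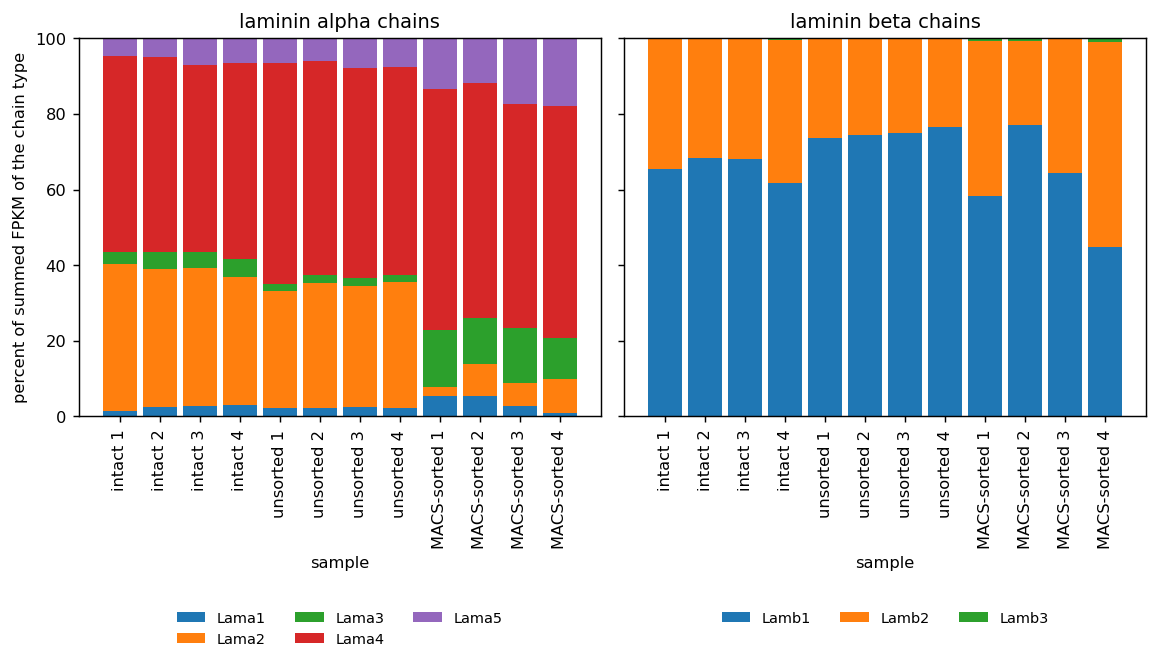
Share of each chain in the summed FPKM of its chain type, in percent, for every sample, drawn as stacked bars for the alpha and beta chains. In the alpha panel the Lama2 share runs from 33.9 to 39.0% (intact), 30.9 to 33.2% (unsorted) and 2.32 to 8.92% (MACS-sorted).

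The residual laminin signal differed between the MACS-sorted samples, as did the endothelial markers. Replicates 1 to 4 of the sorted group had summed laminin levels of 16.5, 9.73, 16.0 and 20.0 FPKM over the 11 chains, beside endothelial marker sums of 58.5, 15.0, 51.8 and 82.1 FPKM and satellite glia marker sums of 117, 89.9, 129 and 202.5 FPKM. Replicate 2 was lowest and replicate 4 highest in all 3 sums. The fibroblast and red blood cell marker sums were also highest in replicate 4, but they were lowest in replicate 1 (14.1 and 2151 FPKM). The satellite glia sum was mostly Glul, which averaged 100 FPKM in the MACS-sorted samples, while each other marker of that list averaged 24.0 FPKM or less. Of the 30 subunits, 20 were highest in replicate 4 among the MACS-sorted samples, and 14 were lowest in replicate 2. The same count over all genes was not made, so these counts are not shown to be particular to the subunits. The part of these cell types in the laminin signal was not tested.

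The laminin receptors of the alpha family split. Itga3 was at 18.3, 17.1, 19.4 and 16.9 FPKM in unsorted samples and at 25.2, 25.9, 22.9 and 22.3 FPKM in MACS-sorted samples. Every MACS-sorted value was above every unsorted value, and the spread within each group was small. The log2-fold change was 0.42 ± 0.077 (limma, adjusted p = 0.0016), under the study's own fold criterion of 0.5. In 20 alternative settings the change of Itga3 stayed between 0.39 and 0.51, and the adjusted p between 2.2e-04 and 0.027.

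Itga6, the partner of Itgb1 and of Itgb4 in laminin receptors, was at 17.1, 17.0, 12.5 and 18.6 FPKM in unsorted samples and 5.84, 4.56, 5.99 and 8.83 in MACS-sorted samples. The groups did not overlap. Its log2-fold change was −1.38 ± 0.19 (limma, adjusted p = 3.1e-04), with 38.7% of the mean left.

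Itga7, a laminin receptor subunit of muscle and of sensory neurons, was at 39.0, 38.4, 42.0 and 39.0 FPKM in unsorted samples and 29.6, 38.6, 26.2 and 32.2 in MACS-sorted samples. MACS-sorted replicate 2 lay inside the unsorted range, so the groups overlapped. Its change of −0.34 ± 0.11 passed the test (limma, adjusted p = 0.030) but missed it in 11 of 20 alternative settings, among them leaving out MACS-sorted replicate 1 or 3 or any 1 of the 4 unsorted samples, with adjusted p-values from 0.0025 to 0.12. With the replicate number as a block its adjusted p was 0.0504, just over the threshold.

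The 3 subunits kept 134% (Itga3), 79.9% (Itga7) and 38.7% (Itga6) of their unsorted means. In the sum of the 11 alpha subunits, Itga7 took 48.3 ± 2.29% before and 47.9 ± 4.26% after sorting, and the groups overlapped. The share of Itga3 was 21.9 ± 1.51% and 36.7 ± 3.30%, and that of Itga6 was 19.9 ± 3.16% and 9.62 ± 2.63%, without overlap.

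Of the alpha subunits that bind other ligands, Itga1, a collagen receptor, fell from 1.45 to 1.92 FPKM in unsorted samples to 0.226 to 0.509 in MACS-sorted samples (log2-fold change −1.84 ± 0.28, limma, adjusted p = 5.3e-04). It averaged under 1 FPKM, and was not tested, when any 1 unsorted sample was left out. Itga4, a receptor for Vcam1 and fibronectin, was at 1.34, 1.68, 1.15 and 1.42 FPKM unsorted and 1.32, 0.848, 0.998 and 2.67 sorted, with MACS-sorted replicate 4 above and replicates 2 and 3 below every unsorted sample. Its change of −0.07 ± 0.32 did not pass (limma, adjusted p = 0.88), and under quantile normalization it was 0.50 and did not pass either.

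Without the filter, Itga2 fell by 2.66, Itga9 by 1.90, Itga8 by 1.29 and Itga11 by 0.75 on the log2 scale, with adjusted p-values of 3.1e-04, 0.0030, 0.032 and 0.043 (limma). Itga2, a collagen receptor, was at 0.747 to 0.910 FPKM in unsorted samples, and in MACS-sorted samples it was listed at 0 in replicate 3 and at 0.0155 to 0.200 in the others. Itga8, a nephronectin receptor, was listed at 0 in MACS-sorted replicate 1. Itga5, the fibronectin receptor subunit, was at 0.830 to 1.27 FPKM unsorted and 0.329 to 0.966 sorted and did not pass in this fit (limma, adjusted p = 0.093). Itga10 did not pass either, and it shares 34.5% of its exon bases with Gm42957 on the same strand, so that its value could hold reads of both.

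Itgb1, the common beta subunit, was at 109, 109, 88.5 and 106 FPKM in unsorted samples and 87.4, 92.0, 90.5 and 84.6 in MACS-sorted samples. Unsorted replicate 3 lay among the MACS-sorted samples and the other 3 above them. The log2-fold change was −0.21 ± 0.080 and did not pass (limma, adjusted p = 0.051), and without unsorted replicate 3 it was −0.29 and passed (adjusted p = 0.0063), as it did in 2 of the other 19 alternative settings, with all 12 samples in one fit and under quantile normalization (adjusted p = 0.039 and 0.041). MACS-sorted samples kept 85.9% of the mean.

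Itgb8, Itgb3 and Itgb5, which pair with Itgav, fell. Itgb8, known for activating TGF-beta together with Itgav, was at 23.5, 21.3, 18.4 and 19.8 FPKM in unsorted samples and at 0.0248, 0.0430, 0.176 and 0.301 FPKM in MACS-sorted samples. Itgb8 was the fifth highest subunit in intact ganglia and among the lowest after sorting, with no overlap. The log2-fold change was −6.62 ± 0.34 (limma, adjusted p = 9.0e-07), and 0.656% of the mean was left. At the estimated depth 1 fragment of Itgb8 would be worth 0.0062 to 0.0089 FPKM, so the lowest value rests on few fragments, and the size of the change depended on the pseudocount, from −4.26 to −7.67 over 20 alternative settings.

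Itgb3, a vitronectin receptor subunit that also serves platelets and is on the platelet marker list, was at 6.00, 5.75, 5.00 and 5.65 FPKM in unsorted samples and 0.0129, 0.0223, 0.203 and 0.301 in MACS-sorted samples. MACS-sorted replicates 1 and 2 were lower than 3 and 4, and all were far below the unsorted samples. For Itgb3 the log2-fold change was −4.81 ± 0.42 (limma, adjusted p = 1.6e-05). Itgb5, another vitronectin receptor subunit, went from 7.81, 8.40, 7.69 and 7.76 FPKM to 0.794, 0.367, 0.496 and 0.958, a change of −3.48 ± 0.24 (limma, adjusted p = 4.7e-06).

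Itgav, the alpha partner of these subunits, is outside the naming rule and was on a list of other integrins. It stood at 10.5 ± 1.38 FPKM unsorted and 0.565 ± 0.51 sorted, a log2-fold change of −4.25 ± 0.41 (limma, adjusted p = 3.0e-05). Itgb6, another partner of Itgav, was at 0.729 to 0.895 FPKM unsorted and 0.0293 to 0.185 sorted, and fell by 2.49 in the fit without the filter (limma, adjusted p = 1.6e-04). Every MACS-sorted value of Itgb3, Itgb5, Itgb6 and Itgb8 was below every unsorted value.

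Itgb4, which pairs with Itga6 and is made by Schwann cells, was at 6.62, 6.06, 5.70 and 6.41 FPKM in unsorted samples and at 0.235, 0.279, 0.307 and 2.18 in MACS-sorted samples. MACS-sorted replicate 4 was far above the other 3. Itgb4 fell by a log2-fold change of −3.42 ± 0.54 (limma, adjusted p = 6.2e-04) and −4.08 without MACS-sorted replicate 4, where 4.41% of the unsorted mean was left in place of 12.1%. The 7 Schwann cell markers summed to 1198 FPKM in MACS-sorted replicate 4 and to 517.5 to 589.7 in the other MACS-sorted samples. That sum was mostly Pmp22 and Mbp, which averaged 373 and 276 FPKM in the MACS-sorted samples. The fibroblast, endothelial, satellite glia and red blood cell sums were also highest in replicate 4. The part of any of these cell types in the Itgb4 value was not tested.

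The leukocyte subunits Itgb2 and Itgb7 were low throughout. Itgb2 was at 0.349 to 1.01 FPKM unsorted and 0.140 to 0.892 sorted, and Itgb7 at 0.430 to 0.933 and 0.494 to 0.868, and both pairs of groups overlapped. The other leukocyte and platelet integrins, Itgam, Itgae, Itgal, Itga2b, Itgax, Itgb2l and Itgad, had group means under 1 FPKM in all 3 groups and were not tested.

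After sorting, Itgb1 made up 96.7 ± 1.85% of the summed FPKM of the 8 beta subunits, against 70.7 ± 0.99% in unsorted and 73.1 ± 1.63% in intact samples. Itgb8 made up 0.149 ± 0.14%, against 14.2 ± 0.73% and 10.3 ± 2.39%. Every MACS-sorted share of Itgb1 was above every share in the other groups.

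**Figure D3:**
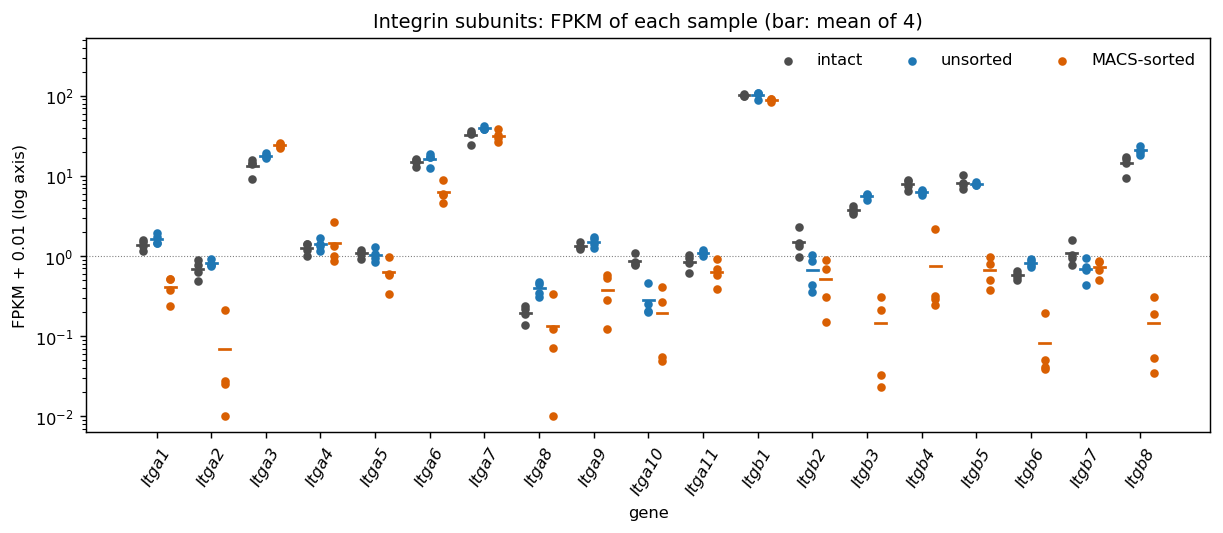
FPKM of the 19 integrin subunits in each sample, on a log axis after adding 0.01, with a bar at the mean of the 4 samples of each group and a dotted line at 1 FPKM. Itgb1 (84.6 to 109 FPKM) and Itga7 lie close together in all 3 groups, MACS-sorted points of Itga3 lie highest, and those of Itgb3 and Itgb8 lie between 0.0129 and 0.301 FPKM.

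Leaving out both MACS-sorted samples with the most haemoglobin mRNA (3 and 4) did not end a call among the 12 that fell, other than that of Itga7, whose adjusted p became 0.12 (limma). Itga3 rose in that fit too.

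The second comparison asked which subunits differed between acutely dissociated and intact ganglia, where no cells were removed by sorting. Of 20 subunits tested, Itgb3, Itgb8 and Lama4 rose and Lamb2 fell, beside 14.8% of 12392 genes that rose and 7.79% that fell. The 3 rises of 20 were near the share over all genes. Under the study's further criteria on fold and level 2 rose and 0 fell, against 4.29% and 2.76%. Of all calls 65.4% were rises, and this share was 43.8% after red blood cell genes were removed and the samples rescaled. Both comparisons used the same unsorted samples and are not independent of each other.

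Itgb3 was at 3.55, 4.21, 3.91 and 3.32 FPKM in intact samples, all below the unsorted samples, with a log2-fold change of 0.57 ± 0.098 (limma, adjusted p = 0.0064). Itgb8 was at 9.40, 16.2, 17.0 and 14.6 FPKM, again all below the unsorted samples and with intact replicate 1 lowest, and its change was 0.57 ± 0.18 (limma, adjusted p = 0.049). Lama4 was at 7.06, 8.77, 8.40 and 7.76 FPKM, narrowly below the unsorted samples, a change of 0.40 ± 0.11 (limma, adjusted p = 0.029). The call of Itgb8 was lost in 14 of 19 alternative settings and that of Lama4 in 8, both with the replicate number as a block (adjusted p = 0.082 and 0.057), while that of Itgb3 was lost only with all 12 samples in one fit.

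Lamb2 fell, from 10.2, 9.72, 10.7 and 10.9 FPKM in intact samples to the 6.95 to 8.52 FPKM of the unsorted samples, without overlap. Its change was −0.42 ± 0.084 (limma, adjusted p = 0.010), and it did not pass with all 12 samples in one fit (adjusted p = 0.37). Lamb1, in contrast, was at 19.5, 20.9, 22.8 and 17.6 FPKM in intact samples and did not pass (change 0.20 ± 0.087, limma, adjusted p = 0.13). Lamc1, at 11.6 to 13.2 FPKM in intact samples, did not pass either (0.24 ± 0.094, adjusted p = 0.10), and passed at 0.31 without unsorted replicate 3 (adjusted p = 0.041). The share of Lamb2 in the summed beta chains was 34.0 ± 2.96% in intact and 25.0 ± 1.26% in unsorted samples, without overlap.

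Intact replicate 1 bore on several subunits. Itga3 was at 9.20 FPKM in that sample and at 14.1 to 15.7 in the other intact samples, and Itga7 was at 24.1 against 33.3 to 36.3. With all 4 intact samples neither passed (Itga3 change 0.45 ± 0.15, limma, adjusted p = 0.067, and Itga7 0.32 ± 0.12, adjusted p = 0.089). Without intact replicate 1 the changes were 0.28 and 0.19 and both passed (limma, adjusted p = 0.012 and 0.020). In that fit Itgb4 fell by 0.42 (adjusted p = 0.0040), so that 5 of 19 subunits tested rose and 2 fell. Calls grew over all genes too: 2724 of 12294 rose and 1666 fell, against 1828 and 965 of 12392 with all 4 intact samples. In intact replicate 1 the Schwann cell markers summed to 4508 FPKM against 2488 to 3292 in the other intact samples, and the fibroblast markers to 1136 against 602.8 to 690.1. Its small-diameter nociceptor markers summed to 3481 against 2449 to 2658, and its red blood cell genes to 907.2 against 383.3 to 544.0. The FPKM of all its genes summed to 345341 against 283676 to 293648. The part of these differences was not tested.

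Itgb2 was at 0.953 to 2.31 FPKM in intact samples and 0.349 to 1.01 in unsorted samples, a change of −1.12 ± 0.36 that did not pass (limma, adjusted p = 0.056) and did with the replicate number as a block or without unsorted replicate 2 (adjusted p = 0.035 and 0.049). The 8 macrophage markers summed to 33.8 to 68.8 FPKM in intact and 10.6 to 22.1 FPKM in unsorted samples, and 6 of them fell. Of the subunits too low for the test, fitted without the filter (9.55% of 18061 genes rose and 6.38% fell), Itga8 rose by 0.75 (adjusted p = 0.029) and Itga10 fell by 1.42 (limma, adjusted p = 0.0079).

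Over all 30 subunits, every unsorted value lay above every intact value for 8 (15.0% of genes detected) and below for 3 (11.0%). Other cell types moved between the same groups. All 7 endothelial markers rose, with sums of 25.6 to 28.1 FPKM in intact and 48.0 to 60.9 in unsorted samples. All 7 fibroblast markers fell, with sums of 602.8 to 1136 and 187 to 407.5 FPKM. Of the satellite glia markers 4 of 8 rose, and of the large-diameter neuron markers 6 of 8 rose. The part of these shifts in the 4 calls above was not tested.

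**Figure D4:**
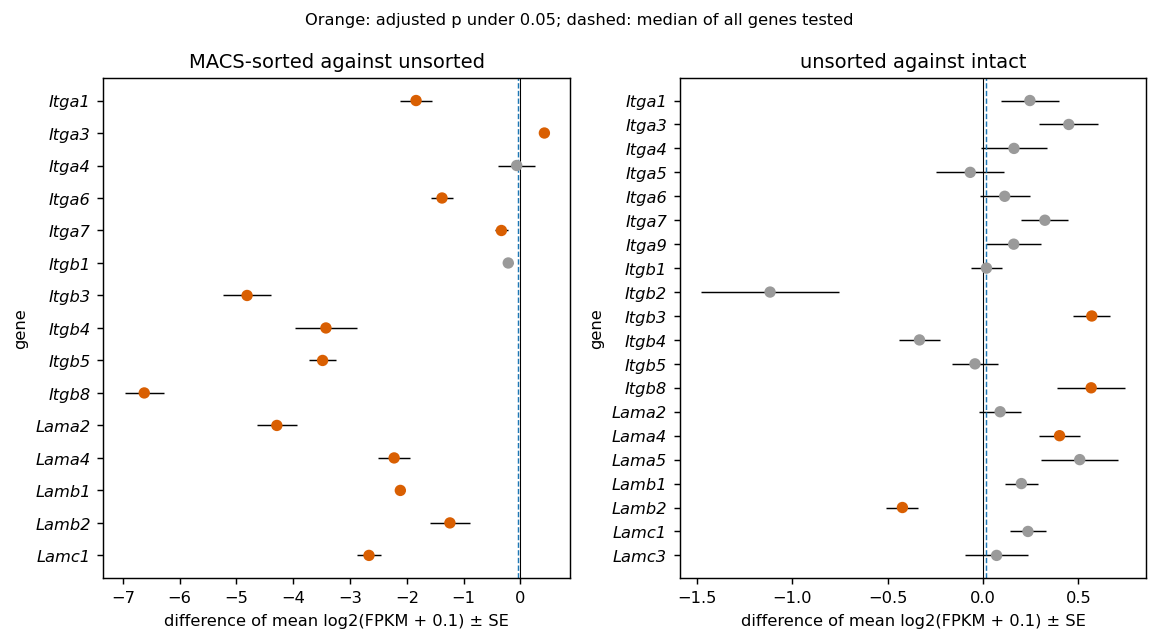
Difference of mean log2(FPKM + 0.1), with SE, for the 15 subunits tested after against before sorting and the 20 tested after against before dissociation. Orange points have an adjusted p under 0.05, and the axes differ: the first panel runs to −6.62 (Itgb8), whereas the calls in the second panel lie between −0.42 (Lamb2) and 0.57 (Itgb3 and Itgb8).

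MACS-sorted samples were also compared with intact ganglia, a contrast that spans both dissociation and sorting and shares its samples with the other comparisons. Of 15 subunits tested, 11 fell and 1 rose, beside 20.6% and 14.1% of 12234 genes. With the criteria on fold and level 9 fell and 1 rose (10.7% and 7.54% of genes), and with no filter on low FPKM 19 of the 30 fell and 1 rose (20.7% and 9.8% of genes). Every MACS-sorted value was below every intact value for 19 subunits and above for 1 (22.0% and 11.3% of genes detected). Of all calls 40.6% were rises, and 60.2% under quantile normalization, where the median over all genes moved from −0.04 to 0.13. Itga3 rose by 0.87 ± 0.16 on the log2 scale (limma, adjusted p = 0.0024), to 180% of the intact mean. Itga7 had a change of −0.01 ± 0.16 (adjusted p = 0.96) and kept 99.0% of the intact mean, and its sign was opposite under median-ratio scaling and after removal of red blood cell genes. Itgb1 had a change of −0.20 ± 0.078 and did not pass (limma, adjusted p = 0.079), although every MACS-sorted value was below every intact value.

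The 11 that fell were Itgb8 (−6.06), Itgb3 (−4.24), Lama2 (−4.20), Itgb4 (−3.76), Itgb5 (−3.53), Lamc1 (−2.43), Lamb1 (−1.91), Lama4 (−1.82), Lamb2 (−1.67), Itgb2 (−1.56) and Itga6 (−1.27), as log2-fold changes. Without MACS-sorted replicate 4 the change of Itgb4 was −4.41. The call of Itgb2, the leukocyte subunit, had an adjusted p of 0.032 (limma) and was lost in 3 of 12 alternative settings, among them without MACS-sorted replicate 2 or 3 (adjusted p = 0.058 and 0.080). Itgb2 averaged under 1 FPKM, and was not tested, under median-ratio, quantile and red blood cell rescaling and without intact replicate 1, 2 or 3.

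Genes that act with the subunits were grouped in lists by function. Of 16 other basement membrane components, 11 were tested after against before sorting. Of these, 9 fell and 0 rose, beside 27.7% and 18.8% over all genes. The median log2-fold change was −3.28, against −0.04 over all genes tested. The nidogens, which tie laminin to collagen IV, fell furthest: Nid1 went from 22.6 ± 3.51 to 0.638 ± 0.64 FPKM (log2-fold change −5.32 ± 0.51, limma, adjusted p = 2.9e-05) and Nid2 from 5.96 ± 0.64 to 0.176 ± 0.35 FPKM (−5.16 ± 0.63, adjusted p = 1.3e-04). Sparc, a collagen-binding matrix protein, went from 366 ± 68.3 to 27.9 ± 18.6 FPKM (−4.02) and Egflam, a dystroglycan ligand, from 3.23 ± 0.47 to 0.119 ± 0.095 FPKM (−4.02). The 2 that did not pass, named after their values were seen, were Agrn (8.22 and 6.37 FPKM) and Col18a1 (4.48 and 3.69 FPKM).

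Dystroglycan and its complex are the other main laminin receptor of Schwann cells and muscle. Of 15 genes of that list, with further laminin receptors, 13 were tested. Of these, 8 fell and 0 rose, beside 27.7% and 18.8% over all genes, and the median log2-fold change was −0.61. Drp2, a dystrophin relative of myelinating Schwann cells, fell by 2.91 on the log2 scale, Dmd, dystrophin, fell by 2.84, Dag1, dystroglycan itself, fell by 2.68 and Sgce, a sarcoglycan, fell by 1.73 (limma, adjusted p = 5.7e-05, 4.1e-06, 1.7e-07 and 1.2e-05). Dag1 went from 50.4 ± 4.52 to 7.78 ± 0.74 FPKM. The 5 that did not pass, named after their values were seen, were Bcam, Sgcd, Sntb1, Rpsa and Dtnb, and Bcam, a receptor for Lama5, was at 229 ± 23.2 FPKM unsorted and 250 ± 41.9 sorted.

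Of 17 intracellular partners of integrins tested, 8 fell and 2 rose, beside 27.7% and 18.8% over all genes, and the median log2-fold change was −0.27. Pxn, paxillin, fell by 2.49 on the log2 scale, Parva, a parvin that binds integrin-linked kinase, fell by 1.73 and Zyx, zyxin, fell by 1.14 (limma, adjusted p = 1.6e-04, 3.6e-05 and 1.6e-05). Actn1, an alpha-actinin, rose from 14.1 ± 0.68 to 29.3 ± 5.41 FPKM (1.03 ± 0.12, limma, adjusted p = 1.1e-04). The other that rose was Src, named after its value was seen, by 0.28.

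Of 12 other integrin ligands tested, 10 fell and 0 rose, beside 27.7% and 18.8% over all genes, with a median log2-fold change of −2.29. Postn, periostin, fell by 5.91, Fbln5, a fibulin, fell by 5.82, Vtn, vitronectin, fell by 4.90 and Spp1, osteopontin, fell by 4.77 on the log2 scale (limma, adjusted p = 3.2e-05, 1.7e-05, 1.8e-05 and 0.0067). Spp1 is also on the list of large-diameter neuron markers. The 2 that did not pass, named after their values were seen, were Ctgf and Icam2.

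Between unsorted and intact samples, 14.8% of all genes tested rose and 7.79% fell. Of the basement membrane components 1 of 11 rose (Hspg2, perlecan) and 3 fell (Col15a1, Agrn and Ntn4). Of the dystroglycan list 1 of 13 rose (Dag1, by 0.56) and 1 fell (Rpsa). Of the intracellular partners 6 of 17 rose and 1 fell (Lims2). Of the other ligands 3 of 15 rose (Cyr61, by 2.39, Fbln5 and Adam23) and 5 fell (Fn1, by 1.36, Vtn, Thbs1, Thbs4 and Emilin1). These names were taken after their values were seen.

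Setting the subunits beside the marker lists, Itgb8, with 0.656% of its unsorted mean left, lay within the range of the satellite glia markers (0.580 to 67.0%, median 1.38%), and Lama2 (4.12%) within that of the fibroblast markers (2.50 to 67.5%, median 4.16%). The Schwann cell markers had a median of 7.92%, next to Itgb5 at 8.26% and Itgb4 at 12.1%. The large-diameter neuron markers had a median of 12.7% and a range of 7.22 to 68.8%, which held Itgb5, Itgb4 and Itga6 (38.7%). Lama2 also lay within the ranges of the satellite glia markers, the macrophage markers (0.935 to 27.9%, median 3.88%) and the pericyte and smooth muscle markers (0 to 190%, median 3.22%). The pericyte and smooth muscle range held Itgb8, Itgb5, Itgb4 and Itga6 as well. Itgb5, Itgb4 and Itga6 also lay within the satellite glia and fibroblast ranges. Itgb5 and Itgb4 lay within those of the macrophage and neutrophil markers (neutrophil 4.88 to 25.4%) too. Itga3, at 134%, lay between the medians of the pan-neuronal markers (118%, range 52.0 to 153%) and the small-diameter nociceptor markers (171%, range 92.3 to 206%). The ranges of the lists were wide and overlapped, and a like percentage does not assign a gene to a cell type.

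**Figure D5:**
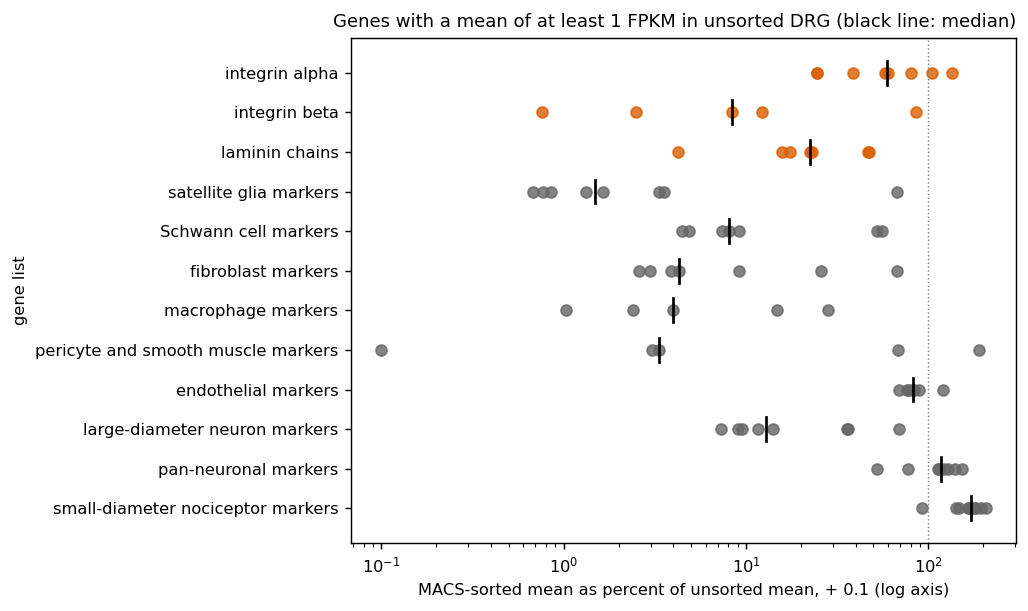
MACS-sorted mean as a percent of the unsorted mean, on a log axis after adding 0.1, for genes averaging 1 FPKM or more before sorting, 1 point per gene and 1 row per list, with a black line at the median and a dotted line at no change. Integrin beta points run from Itgb8 at 0.656% to Itgb1 at 85.9%, laminin chains from Lama2 at 4.12% to Lama5 at 46.9%, and among integrin alpha subunits Itga3 (134%) and Itga4 (104%) lie past 100%.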

How the data were processed

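The deposited table held 1 FPKM value per gene and sample, which the authors made by aligning 100-base reads to mm10 with TopHat2 (at most 2 alignments per read), merging alignments with SAMtools and estimating transcript levels with Cufflinks 2.1.1. The FPKM values were used as deposited. No counts were used, so depth is an estimate that rests on an assumed fragment length of 150 bases. The study compared groups with CuffDiff, which needs reads. In its place limma 3.58.1 (R 4.3.3) was fitted with a variance trend to log2(FPKM + 0.1) of the 8 samples of each pair of groups, over genes averaging 1 FPKM or more, with Benjamini-Hochberg adjustment.

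Groups and replicate numbers came from sample titles. The labels give the number of mice behind each sample, and p-values measure the spread between the 4 samples of a group. The replicate numbers did not pair the samples. The members, the lists and the rule for naming genes (the subunits, 1 of which is counted but not reported here, and of each list at most 4 called genes with the largest change in MACS-sorted against unsorted samples, plus integrins outside the pattern and marker genes listed at 0) were chosen with earlier results of these data known. File starts counted from 0 were shifted to count from 1. Alternatives were pseudocounts of 1 and 0.01, no filter or a mean of 5 FPKM, all 12 samples in 1 fit, a replicate block, no trend, 3 scalings, 2 stricter call rules, averaging unsorted replicates 1 and 2, leaving out MACS-sorted replicates 3 and 4, and leaving out each sample.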

Additional observations from a re-analysis of the deposited data

Results flagged for a closer look

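Itgb1 in unsorted replicate 3 was at 88.5 FPKM, below the 106 to 109 FPKM of the other 3 unsorted samples, and the gap took 0.842 of the range of the group. Itga7 was at 42.0 FPKM in the same sample, above the 38.4 to 39.0 FPKM of the others, with a gap of 0.832 of the range. Both exceeded the 95% critical value of Dixon's test for 4 samples, and only these 2 of the 49 groups of values screened did. In such a screen chance alone flags about 1 in 20 groups. Groups averaging under 1 FPKM were not screened, among them Itgb4 in MACS-sorted samples (0.235, 0.279, 0.307 and 2.18 FPKM).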

How the results depend on the processing

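Between MACS-sorted and unsorted samples the counts of 1 subunit higher and 12 lower became 0 higher under the study's 3 criteria (adjusted p, log2 ratio beyond 0.5, mean above 5 FPKM), 21 lower with no filter on low FPKM (where all 30 subunits were tested) and 7 lower at a mean of at least 5 FPKM (9 tested). Over all genes, 4358 of 17657 were lower with no filter and 2092 of 8128 at a mean of at least 5 FPKM. Leaving out 1 sample gave 1 subunit higher and 10 to 14 lower, beside 1856 to 2568 genes higher and 2825 to 3499 lower.

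Between unsorted and intact samples the 3 higher became 0 with all 12 samples in one fit, and 1 with the replicate block, with red blood cell genes removed, at an adjusted p under 0.01 and with unsorted replicates 1 and 2 averaged. The 1 lower became 3 with no filter, 0 with all 12 samples, under the 3 criteria and at 0.01, and 2 with the replicate block. Leaving out 1 sample gave 1 to 5 higher (1 without unsorted replicate 1, 2 or 4 or intact replicate 4, and 5 without intact replicate 1) and 1 to 2 lower (2 without unsorted replicate 2 or intact replicate 1). Over all genes these fits gave 1052 to 2724 higher and 498 to 1666 lower.

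Between MACS-sorted and intact samples the 1 higher became 2 under quantile normalization, where Itga4 passed with a change of 0.90, and the 11 lower became 19 with no filter and 6 at a mean of at least 5 FPKM. Leaving out 1 sample gave 1 higher and 10 to 11 lower. Where construction does not show it, the cause was not tested.

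Signs turned for changes that had not passed. In MACS-sorted minus unsorted, Itga4 was 0.50 under quantile normalization and −0.39 to 0.13 when 1 sample was left out. In unsorted minus intact, Itgb1 was −0.0093 under quantile normalization, −0.0035 with red blood cell genes removed, −0.011 with unsorted replicates 1 and 2 averaged and −0.012 to 0.089 when 1 sample was left out, Itga5 −0.17 to 0.017, Itgb5 −0.13 to 0.070 and Lamc3 −0.010 to 0.15. In MACS-sorted minus intact, Itga4 was −0.20 without MACS-sorted replicates 3 and 4 and −0.23 to 0.29 when 1 sample was left out, and Itga7 was 0.045 with median-ratio factors, 0.018 with red blood cell genes removed, 0.098 without MACS-sorted replicates 3 and 4 and −0.14 to 0.074 when 1 sample was left out. No other subunit tested in the main fit of a comparison turned sign in it. Subunits below the filter on low FPKM were not followed through these settings.

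The numbers do not pair the samples: deviations of same-numbered samples correlated at −0.143 to 0.067, and 2, 1 and 1 of 8 samples in the 3 comparisons correlated best with their own number. Beside the 2 counts above, the replicate block ended the calls of Itga7 (MACS-sorted against unsorted), Itgb8 and Lama4 and gave one to Itgb2 (both in unsorted against intact). Subunits near 0 FPKM in MACS-sorted samples have fold changes that depend on the pseudocount, and the depth limits how far below their lowest values a level could be seen.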
